A study of Mus musculus with 10 samples.

Results

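MHC class I molecules carry fragments of a cell's own proteins to its surface, where CD8 T cells read them. The fragments are cut by the proteasome, pumped from the cytosol into the endoplasmic reticulum and loaded there onto a heavy chain paired with a shared light chain. In cells exposed to interferon the catalytic subunits of the standard proteasome can be replaced by immunoproteasome subunits, and the loading machinery is raised by the same signals. Hepatocytes are known for modest class I display, while the immune and endothelial cells of the liver sinusoids display more.

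The 10 genes examined were taken by symbol from the deposited count table, which holds 24537 genes, and all 10 were present and are among the 13909 genes that passed the filter on low counts. H2-K1 and H2-D1 encode the classical heavy chains and B2m the light chain. Tap1 and Tap2 form the peptide pump, and Tapbp encodes tapasin, which holds the empty heavy chain at the pump. Psmb8, Psmb9 and Psmb10 are the immunoproteasome subunits that take the places of Psmb5, Psmb6 and Psmb7, and Nlrc5 encodes a transactivator of class I promoters.

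RNA came from 10 whole livers of male mice that had all received an AAV8 vector with SaCas9 driven by TBG, a hepatocyte promoter, and a guide RNA under U6. The guide targeted Rosa26 in the control groups and Cd44, a cell surface receptor for hyaluronan, in the knockout group. Young controls (young Rosa26) were 9 months old with virus given at 7 months (n = 3), old controls (old Rosa26) were 25 months old with virus given at 23 months (n = 3), and knockout livers (old Cd44KO) had the same ages as the old controls (n = 4). Knockout replicates 1 and 2 carried guide 4, and replicates 3 and 4 carried guide 2. The promoter directs SaCas9 to hepatocytes, so other liver cells should keep an intact Cd44, and the strain is not given in the labels.

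The libraries held 15821198 to 21710228 counts per liver, at which 3 counts, taken as the smallest detectable amount, equal 0.138 to 0.19 CPM (counts scaled to library size, here with TMM factors, which align the bulk of genes between libraries). That limit accounts for counting error alone. Cd44 stood at 10.1 to 16.6 CPM in young controls, 14.2 to 29.99 CPM in old controls and 13.1 to 29.01 CPM in the livers labelled knockout. Its log2 difference between knockout and old control was -0.25 with an adjusted p of 0.896 by edgeR's quasi-likelihood test and the ranges overlapped. Alb, the main hepatocyte secretory product, was at 53020 to 95060 CPM in every liver. The labels do not say that each record is a separate animal, so p-values measure the spread between these samples, which may be technical.

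Several of the genes lie close together in the MHC on chromosome 17 of GRCm38 (annotation GENCODE M21). Tapbp spans 33915899 to 33929292 and H2-K1 33996017 to 34000347, on the plus and the minus strand. Psmb9 (34181987 to 34187764, minus strand), Tap1 (34187553 to 34197225, plus), Psmb8 (34197721 to 34201454, plus) and Tap2 (34203527 to 34216321, plus) follow each other. H2-D1 lies further on at 35262730 to 35267499 on the plus strand. B2m is on chromosome 2 (122147686 to 122153083, plus), and chromosome 8 holds Nlrc5 (94434356 to 94527272, plus) and Psmb10 (105935735 to 105938444, minus). The RefSeq start sites of Psmb9 and Tap1 are 225 bases apart and point away from each other, and the annotated exons of this pair overlap by 212 bases on opposite strands. The strand setting of the authors' counting is not given in the sources used here, so reads in that overlap cannot be assigned. Noncoding genes on the opposite strand, absent from the count table, overlap 24.9% of the exon bases of Tapbp, 14.7% of Psmb8 and 14.1% of Tap2. Reads there cannot be assigned either.

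RefSeq promoter sequence (GRCm38.p6) was at hand for 8 of the 10 genes. In the 250 bases before the start site, the core of the interferon regulatory factor element (AANNGAAA, either strand) was found in 3 genes, H2-K1, H2-D1 and B2m. The same 3 genes held an NF-kB match (GGGNNTTNC, either strand). Of all 32841 promoter windows of that length, 21.3% held the former and 13.0% the latter. A gamma-activated sequence (GAS, TTCNNNGAA) was matched in Psmb8 alone among the 8, against 7.0% of all windows, and a CCAAT box (either strand) in 6 of the 8, against 33.9%. The CCAAT matches of Tap1 and Psmb9 are the same bases, because the windows of this pair overlap, so they are not separate sites. The stretches of 29 bases shown here hold, in capitals, the matches that set these genes apart from the other members with a promoter sequence. The motifs do not overlap.
H2-K1 (chr17:34000430-34000458, minus strand): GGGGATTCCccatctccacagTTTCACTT
H2-D1 (chr17:35262923-35262951, plus strand): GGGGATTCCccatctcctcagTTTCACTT
B2m (chr2:122147546-122147574, plus strand): atgaAACTGAAAatggGAAAGTCCCtttg
Psmb8 (chr17:34198088-34198116, plus strand): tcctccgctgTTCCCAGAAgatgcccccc
In both heavy chain genes the capitals mark the NF-kB match and then the interferon element on the opposite strand. In B2m the interferon element comes before the NF-kB match, and in Psmb8 the capitals mark the GAS. Counted from 1 at the 5′ end of the stretch, the H2-K1 and H2-D1 stretches differ by A18T, and over 190 aligned bases of their promoters 87.4% were identical. The H2-D1 and Psmb8 stretches lie before the RefSeq start used here but inside the first exon of a longer GENCODE transcript. A match describes letters and is not evidence of binding.

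Levels were compared between genes only after dividing by exon length, the union of all annotated exons of a gene (CPM per kb). The longest coding transcript can be much shorter, 1352 against 3660 bases for Psmb9 and 7578 against 8493 for Nlrc5. The order of genes and the size of a ratio between genes therefore depend on this choice of length. B2m was at 3220 to 5380 CPM per kb over the 10 livers and ranked between 9 and 17 of 13577 genes with a length. H2-K1 followed at 558 to 950 CPM per kb and H2-D1 at 328 to 638 CPM per kb. These ranges meet, but within each liver H2-K1 was the higher, by a ratio of 1.37 to 2.03. Tapbp was next at 43.1 to 75.2 CPM per kb. Psmb10 (17.1 to 31.4) and Psmb8 (15.0 to 30.5) shared nearly the same range of CPM per kb. Tap1 (11.7 to 18.4) overlapped with Tap2 (9.86 to 14.9), and Psmb9 (6.1 to 12.5) with Nlrc5 (5.71 to 9.4), in CPM per kb. The 3 display molecules together took 0.527% to 0.919% of all counts of a liver.

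**Figure D1:**
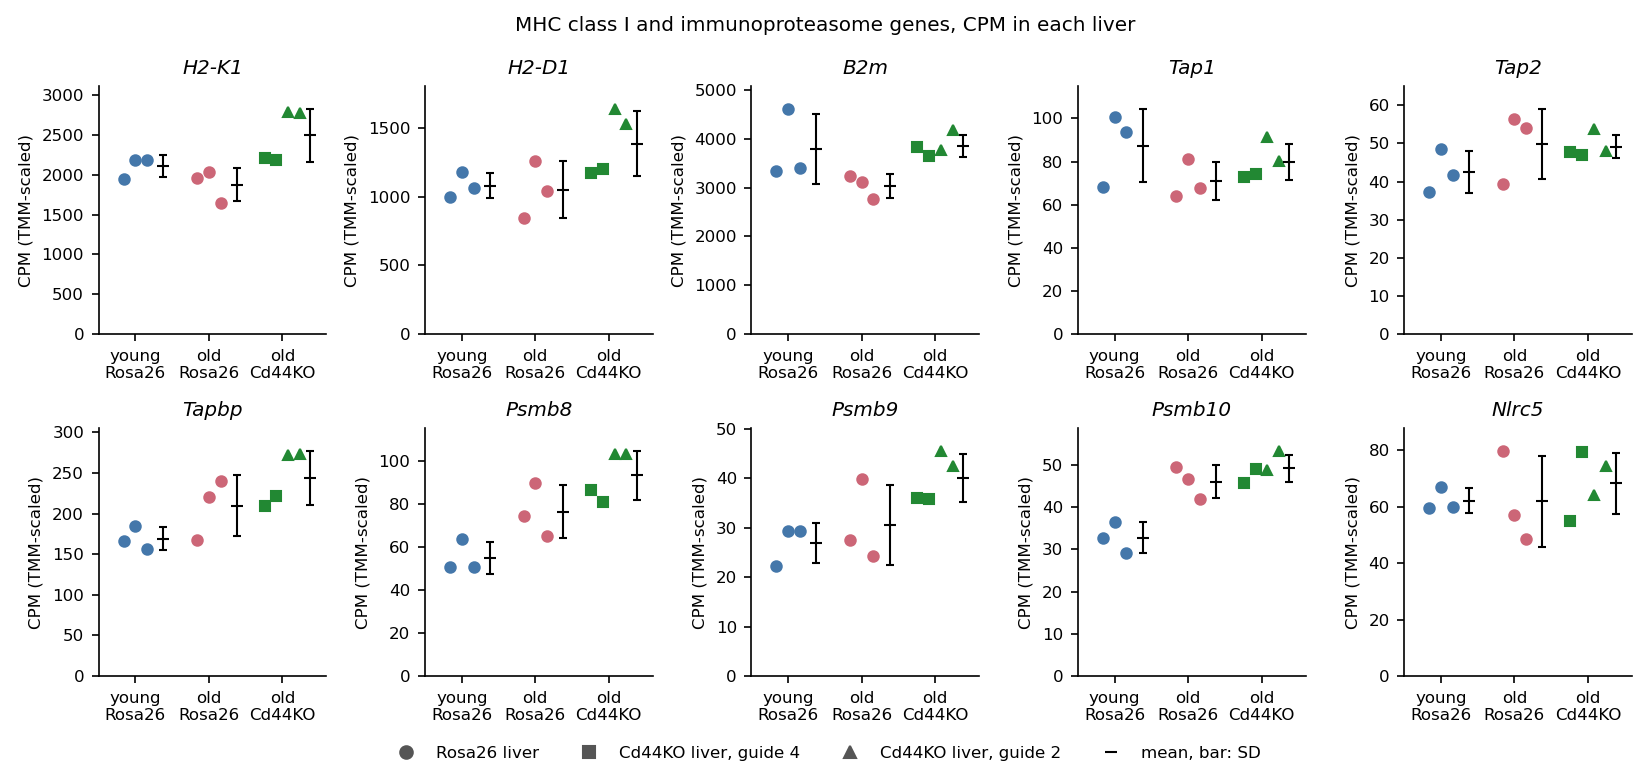
CPM of each of the 10 genes (vertical axes, linear, from 0) in every liver, by group; circles are Rosa26 livers, squares knockout livers with guide 4, triangles knockout livers with guide 2, and the black mark with its bar is the mean ± SD. The young and old control points of Psmb8 and Psmb10 do not meet, and the guide 2 livers are the highest of the 10 for H2-K1, H2-D1, Tapbp, Psmb8 and Psmb9.

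The comparison of old with young controls asks how these genes differ with age. The immunoproteasome subunit Psmb10 rose, and the other 9 genes did not pass edgeR's test in either direction. Of all 13909 genes tested, 22.8% were called in this comparison (adjusted p under 0.05, edgeR's quasi-likelihood test), 14.1% as higher and 8.66% as lower, so the 1 call among 10 genes lies below the general share. Estimates lay above 0 for 5 of the 10 genes and for 52.4% of all genes. The median log2 difference of the 10 genes was 0.09, beside 0.04 over all genes tested. With total counts in place of TMM factors the median of all genes moves up by 0.31 and the 10 genes all lie above 0, so H2-K1, H2-D1, B2m, Tap1 and Nlrc5 change sign and the other 5 keep theirs. Under that scaling 91.6% of called genes were higher, against 62.0% with TMM. The TMM factors were 0.824 to 0.897 in the young livers and 0.966 to 1.12 in the 7 old ones.

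Psmb10, the counterpart of Psmb7, had 32.8, 36.4 and 29.2 CPM in young livers and 49.6, 46.6 and 41.9 CPM in old control livers. Every old control lay above every young control. The log2 difference was 0.49 (SE 0.12), a 1.40-fold rise, with an adjusted p of 0.0197. With total counts it was 0.81. The adjusted p was 0.0667 when only these 2 groups were fitted, and it rose to at most 0.0728 when one of the young livers or old control replicate 2 was left out.

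Psmb8, the counterpart of Psmb5, had 50.6, 63.5 and 50.7 CPM in young livers and 74.3, 89.5 and 65.1 CPM in old controls, again without overlap. Its log2 difference was 0.47 (SE 0.16) with an adjusted p of 0.0541, just outside the threshold. DESeq2 gave 0.034, the fit with separate guide coefficients 0.0481 and total-count scaling 0.00876 for the same adjusted p. Psmb9 had 22.3, 29.4 and 29.3 CPM in young livers and 27.5, 39.8 and 24.4 CPM in old controls, which overlapped. Its log2 difference was 0.18 (SE 0.19), and without old control replicate 2 it was -0.06.

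The subunits that the immunoproteasome replaces had values on the other side. Psmb5 fell from 95.1, 106.5 and 99.1 CPM in young livers to 89.7, 69.4 and 61.9 CPM in old controls, a log2 difference of -0.44 (SE 0.14, adjusted p = 0.0443). Psmb7 fell from 167.2, 181.7 and 152 CPM to 98.3, 106.9 and 134.5 CPM, a log2 difference of -0.56 (SE 0.15, adjusted p = 0.0253). Psmb6 did not pass the test, at -0.20 (SE 0.15). With total counts the values were -0.13 for Psmb5, -0.26 for Psmb7 and 0.11 for Psmb6, none of them called. Both calls were also lost when only these groups were fitted. Leaving out single livers lost the Psmb5 call for any young liver and for old control replicates 2 and 3, and the Psmb7 call for young replicates 1 and 2 and old control replicates 1 and 2.

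A ratio of 2 genes within a liver needs no scaling between libraries. Per kb of exon, Psmb8 relative to Psmb5 was 0.142, 0.159 and 0.136 in young livers and 0.22, 0.343 and 0.279 in old controls. The ratio was 1.91-fold higher in old than in young controls (geometric means). Psmb10 relative to Psmb7 was 0.394, 0.402 and 0.386 in young livers and 1.01, 0.875 and 0.625 in old controls, 2.09-fold higher. Neither ratio overlapped between the groups. The exact two-sided permutation p was 0.1 for each, the smallest that 3 livers against 3 allow, and 0.164 after adjustment over the 18 ratio tests made. Psmb9 relative to Psmb6 overlapped, with 0.0842 to 0.108 in young and 0.0923 to 0.187 in old control livers.

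Among the display molecules, H2-K1 had 1946, 2186 and 2186 CPM in young livers and 1955, 2035 and 1639 CPM in old controls, and H2-D1 had 1001, 1180 and 1064 CPM against 847, 1264 and 1047 CPM. Both sets overlapped. The log2 differences were -0.17 (SE 0.16) for H2-K1 and -0.04 (SE 0.19) for H2-D1, and with total counts they were 0.15 and 0.27. B2m had 3341, 4623 and 3411 CPM in young livers and 3230, 3121 and 2766 CPM in old controls. Its old control values lay below the young ones, a log2 difference of -0.32 (SE 0.16, adjusted p = 0.177) that became 0.0004 with total counts. Nlrc5 had 59.4, 67.1 and 59.9 CPM against 79.9, 57.2 and 48.5 CPM and a log2 difference of -0.01 (SE 0.19), which turned to 0.32 with total counts.

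In the loading group, Tap1 had 68.1, 100.6 and 93.7 CPM in young livers and 64.2, 81.05 and 67.8 CPM in old controls. Tap2, the other half-transporter, had 37.3, 48.4 and 41.8 CPM against 39.5, 56.5 and 53.95 CPM. Tapbp had 166.1, 184.8 and 156.4 CPM against 167.6, 220.7 and 240.2 CPM. All 3 overlapped between ages, with log2 differences of -0.30 (SE 0.17) for Tap1, 0.23 (SE 0.15) for Tap2 and 0.31 (SE 0.17) for Tapbp. With total counts the Tap1 value was 0.01, and Tap2 (0.54) and Tapbp (0.61) were called. The ratio of Tap1 to Tap2 per kb was 1.26 to 1.55 in young livers and 0.868 to 1.12 in old controls, with no overlap (exact permutation p = 0.1, adjusted p = 0.164, two-sided). Psmb9 relative to its divergent neighbour Tap1 was 0.438 to 0.491 in young livers and 0.538 to 0.735 in old controls, again apart (exact permutation p = 0.1, adjusted p = 0.164).

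Counting groups that did not overlap, 2 of the 10 genes were higher in old controls (Psmb8 and Psmb10), against 19.7% of all genes, and 1 was lower (B2m), against 18.0%.

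**Figure D2:**
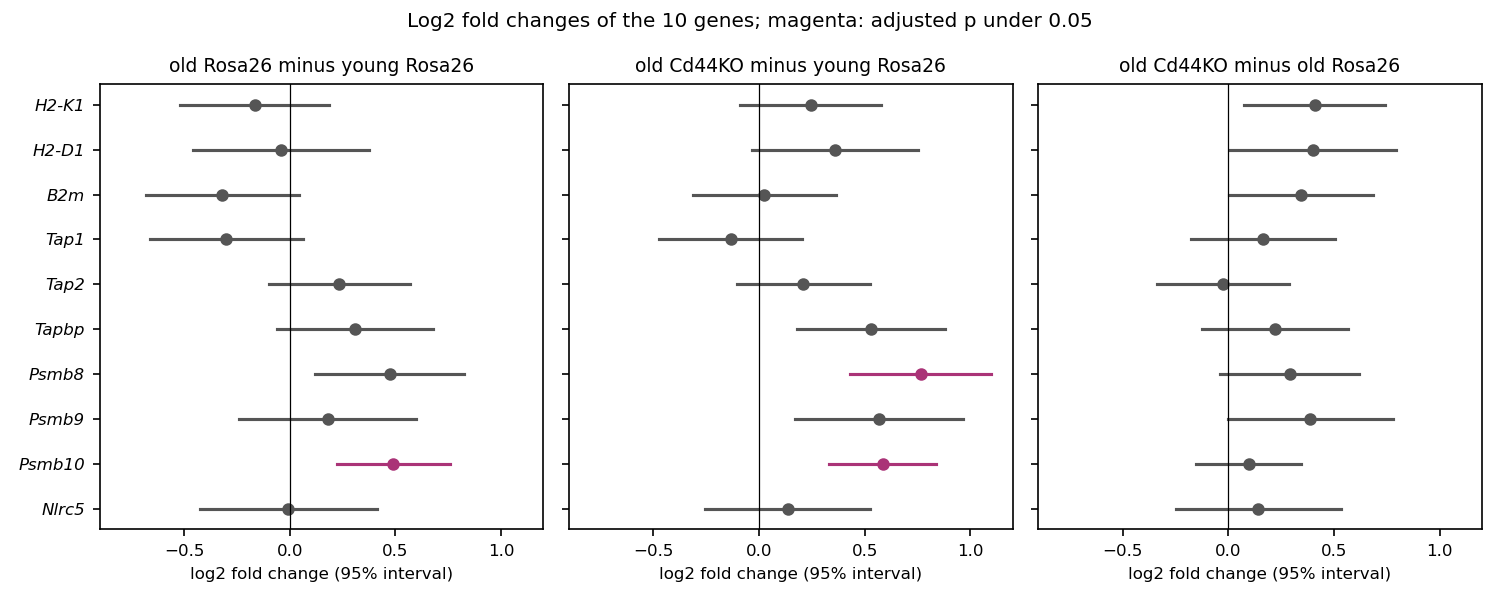
Log2 fold changes (horizontal axes, TMM-scaled) of the 10 genes with 95% intervals in 3 comparisons; magenta marks an adjusted p under 0.05. Psmb10 is called against young livers in both old groups and Psmb8 in the knockout group, and no gene is called between the old groups.

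Other genes of the pathway were read from lists. Among 15 tested class I heavy chain relatives, 3 rose in old controls and none fell, where 14.1% of all genes were called as higher. H2-M3, which presents formylated peptides, rose from 2.26 to 3.36 CPM in young livers to 4.48 to 9.89 CPM (log2 difference 1.25, adjusted p = 0.0235). Mr1, which presents vitamin B metabolites to MAIT cells, rose by 0.87 on the log2 scale (adjusted p = 0.0474), and H2-Q4 by 0.58 (adjusted p = 0.0459). The median of the list was 0.31, beside 0.04 over all genes. No gene of 8 trimming and loading partners was called, and their median was -0.34; these include Calr, an endoplasmic reticulum chaperone, with 1720 to 2000 CPM in young and 779.5 to 1410 CPM in old control livers. Of 8 standard subunits and activators, 3 fell (Psme3, Psmb7, Psmb5) and none rose, where 8.66% of all genes were called as lower. The activators Psme1 (-0.003) and Psme2 (0.05) were not called, and Psme1 was 0.32 with total counts.

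Of 22 class I regulators, 2 rose and 3 fell, a share close to the 22.8% of all genes called in either direction. Irf8, a factor of myeloid and B cells, rose by 1.30 on the log2 scale (adjusted p = 0.0208), and Tyk2, a kinase of the interferon receptors, by 0.33 (adjusted p = 0.0388). Rfxank, part of the RFX complex that binds MHC promoters, fell by 0.74 (adjusted p = 0.0122), Irf9 by 0.44 (adjusted p = 0.0236) and Rela, an NF-kB subunit, by 0.42 (adjusted p = 0.0317). Irf1, an interferon-induced transcription factor, had 38.96 to 62.7 CPM in young and 44.8 to 75.1 CPM in old control livers and was not called. Of 13 interferon gamma targets, 4 fell and none rose, against 8.66% of all genes called as lower, all of the 4 by 0.77 to 0.97 on the log2 scale: Irgm1, Igtp, Iigp1 and Wars, the first 3 of them interferon-inducible GTPases. None of 14 type I interferon targets was called, with a median of -0.21. The calls of Rfxank, Irf9, Rela, Iigp1, Wars and Psme3 were lost with total counts. Every pathway call named in this and the preceding paragraph was lost without young replicate 2, and likewise without old control replicate 2.

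Markers of immune and sinusoidal cells differed with age in the same livers. Beside the counts given here, 14.1% of all genes were called as higher with age and 8.66% as lower. All 5 pan-leukocyte markers rose, with a summed level of 39.7 to 56.7 CPM in young livers and 100.5, 266.6 and 135 CPM in old controls. Ptprc, the common leukocyte antigen, rose by 1.79 on the log2 scale (adjusted p = 0.00936), a call lost without young replicate 2 (highest adjusted p 0.0517). All 7 MHC class II genes rose, with sums of 118.6 to 188.6 CPM in young livers and 486.7, 1444 and 201.6 CPM in old controls. Counts of markers that rose were 4 of 7 for T cells, 1 of 4 tested for NK cells, 4 of 5 for B cells, 4 of 6 for Kupffer cells, 3 of 7 for monocytes and dendritic cells and 5 of 6 for neutrophils. They were 5 of 7 for sinusoidal endothelium, 4 of 6 for stellate cells and 0 of 4 for cholangiocytes. Summed neutrophil markers were at 6.91 to 15.2 CPM in young livers and 26, 257.6 and 24.7 CPM in old controls. Summed T cell markers were at 3.99 to 4.62 CPM in young livers and 9.83, 48.8 and 4.39 CPM in old controls, so old control replicate 2 was high and replicate 3 was within the young range. These counts rest on single livers, as leaving out each liver in turn showed, an alternative chosen after seeing the data. Without old control replicate 2, 1 of 7 class II genes, 1 of 6 neutrophil, 2 of 5 B cell, 3 of 6 Kupffer cell and 2 of 6 stellate cell markers were called, and no T cell, monocyte or dendritic cell marker. The 5 pan-leukocyte and 4 of 7 sinusoidal endothelial markers still were. Without young replicate 1 the class II count was 1, the neutrophil count 2 and the T cell count 0, and without young replicate 3 they were 1, 1 and 0. Without young replicate 2, 1 sinusoidal endothelial and 1 stellate cell marker were called and none of the immune cell lists or class II genes. Among 8 hepatocyte markers Hnf4a fell by 0.96 (adjusted p = 0.0147). The part of these markers in the levels of the 10 genes was not tested, and in whole liver more cells of a type and more RNA per cell cannot be told apart.

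Old knockout livers compared with young controls share those young livers with the age comparison, so the values stand side by side and are not independent. Psmb8 and Psmb10 were called as higher, 2 of the 10, where 11.6% of all genes were called, 6.64% as higher and 4.97% as lower. Estimates lay above 0 for 9 of the 10 genes and for 52.2% of all genes, with medians of 0.30 and 0.03. Psmb8 had 86.5, 80.8, 103 and 102.9 CPM in the knockout livers, a log2 difference of 0.76 (SE 0.15, adjusted p = 0.0186). Psmb10 had 45.7, 48.99, 48.8 and 53.5 CPM, a log2 difference of 0.59 (SE 0.12, adjusted p = 0.0179). All 4 knockout livers were above all 3 young ones for both. Both calls were lost when any young liver or knockout replicate 4 was left out, with adjusted p of at most 0.0713, and Psmb8 also without replicate 3.

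In all, 5 of the 10 genes had knockout livers entirely above the young ones, against 21.1% of all genes, and 3 of these 5 were not called. Tapbp had 209, 221.5, 272.6 and 272.7 CPM (log2 difference 0.53, SE 0.16, adjusted p = 0.0529) and Psmb9 had 36.03, 35.8, 45.6 and 42.5 CPM (0.57, SE 0.18, adjusted p = 0.062). DESeq2 called both, with adjusted p of 0.0188 and 0.0414. H2-K1 had 2214, 2188, 2790 and 2779 CPM (0.24, SE 0.15, adjusted p = 0.278). The other log2 differences were 0.36 for H2-D1, 0.21 for Tap2, 0.13 for Nlrc5, 0.02 for B2m and -0.13 for Tap1, which was 0.18 with total counts. With total counts 7 of the 10 were called, and 92.9% of all called genes were higher, against 57.2% with TMM.

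The 3 immunoproteasome ratios did not overlap between knockout and young livers. Psmb8 relative to Psmb5 per kb was 0.253 to 0.31 in the 4 knockout livers, 1.91-fold above the young livers. Psmb10 relative to Psmb7 was 0.683 to 0.933, 2.03-fold above. Psmb9 relative to Psmb6 was 0.124 to 0.172, 1.47-fold above. The exact permutation p was 0.0286 for each, the smallest possible with 4 livers against 3, and 0.103 after adjustment over the 18 ratio tests. Relative to old controls, the knockout ratios were 1.002-fold for Psmb8 to Psmb5, 0.975-fold for Psmb10 to Psmb7 and 1.13-fold for Psmb9 to Psmb6.

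**Figure D3:**
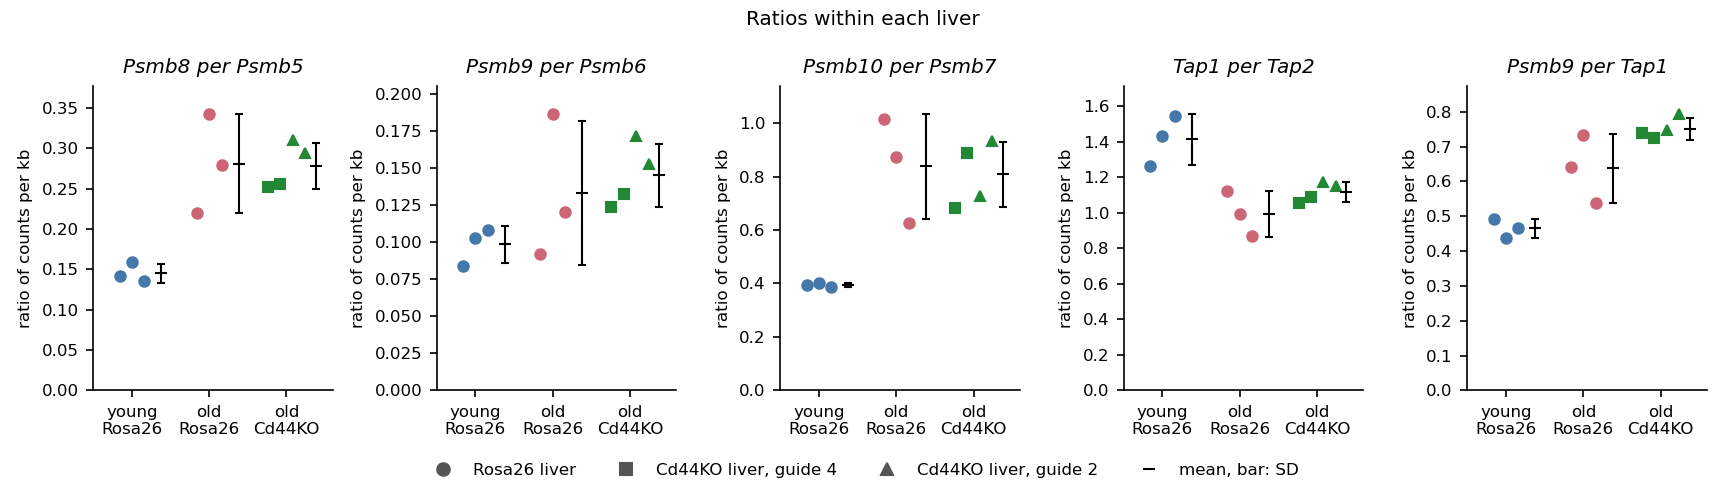
Ratios of counts per kb within each liver (vertical axes, linear, from 0), by group; circles are Rosa26 livers, squares guide 4, triangles guide 2, and the black mark with its bar is the mean ± SD. The 3 immunoproteasome ratios are higher on average in both old groups, and young Psmb10 per Psmb7 values lie between 0.386 and 0.402.

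In this comparison 4 of the 15 other heavy chains rose: H2-M3 by 1.28, H2-T10 by 0.79, H2-Q4 by 0.68 and H2-Q7 by 0.63 on the log2 scale, with adjusted p of 0.031, 0.0492, 0.0353 and 0.0357. Gbp3, a guanylate-binding protein, was the 1 of 13 interferon gamma targets to rise (1.08, adjusted p = 0.0376). Of all genes, 6.64% were called as higher here and 4.97% as lower, so 1 of 13 lies near the general share. Psme3 (-0.71), Rfxank (-0.72), Rela (-0.50) and Irf9 (-0.39) fell, calls that total-count scaling lost. Each of these calls was lost without young replicates 2 or 3 or knockout replicates 3 or 4, and no alternative turned its sign. Among marker lists 3 of 5 pan-leukocyte, 6 of 7 T cell, 5 of 5 B cell and 0 of 6 Kupffer cell markers rose, and the pan-leukocyte sums were 97.9 to 160.5 CPM. Counts were 1 of 7 for class II, 1 of 4 for NK cells, 0 of 7 for monocytes and dendritic cells and 1 of 6 for neutrophils. They were 1 of 7 for sinusoidal endothelium, 2 of 6 for stellate cells and 0 of 4 for cholangiocytes. Leaving out single livers lost the Cd3e and Cd8a calls in 6 of 7 fits and the Cd3g and Cd8b1 calls in all 7. Limma voom lost these calls too, while Ms4a1, a B cell marker, kept its call throughout. The part of these markers in the result was not tested.

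Livers given a Cd44 guide were next compared with those given the Rosa26 guide at the same old age. No gene of the 10 was called, and edgeR called 0% of all genes. Without adjustment 916 genes, or 6.59%, had p under 0.05, and DESeq2 called 8. The point estimates of 9 of the 10 genes lay above 0, where 45.6% of all genes did, and their median log2 difference was 0.26 beside -0.02. H2-K1 and H2-D1 had the largest of the 10 values. H2-K1 was at 2188 to 2790 CPM in knockout livers and 1639 to 2035 CPM in old controls, which did not overlap, with a log2 difference of 0.41 (95% interval 0.08 to 0.74, adjusted p = 0.744). B2m, with 3831, 3655, 3767 and 4178 CPM, was also above all old controls (0.34, interval 0.004 to 0.68, adjusted p = 0.748). H2-D1, with 1174, 1207, 1645 and 1531 CPM, overlapped (0.40, interval 0.01 to 0.79, adjusted p = 0.748). These 2 of 10 genes without overlap compare with 2.84% of all genes higher in that way.

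The remaining genes overlapped between the old groups. Psmb9 differed by 0.39 (interval -0.004 to 0.78) and Psmb8 by 0.29 (interval -0.04 to 0.62) on the log2 scale. Tapbp (0.22), Tap1 (0.17), Nlrc5 (0.14), Psmb10 (0.10) and Tap2 (-0.02) had intervals that span 0. Knockout values were 73.04, 74.1, 91.3 and 80.1 CPM for Tap1, 47.8, 47.1, 53.7 and 48.02 CPM for Tap2 and 55.03, 79.4, 64.2 and 74.2 CPM for Nlrc5. Total-count scaling moved the median of all genes by 0.01 here and changed no direction among the 10. Leaving out single livers turned the sign of Tap2 (-0.17 to 0.07) and Nlrc5 (-0.01 to 0.37), and no member was called in any of these fits.

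Marker lists lay on different sides of 0 in this comparison. None of the 5 pan-leukocyte markers, none of 6 Kupffer cell markers and none of 7 class II genes had an estimate above 0, while 5 of 7 T cell and 5 of 5 B cell markers did, and none was called. Of all genes, 45.6% had an estimate above 0. Counts above 0 were 0 of 6 for neutrophils (median -2.36), 0 of 7 for sinusoidal endothelium and 0 of 6 for stellate cells. They were 3 of 7 for monocytes and dendritic cells, 3 of 4 for NK cells, 2 of 4 for cholangiocytes and 4 of 8 for hepatocytes, again with none called. Summed neutrophil markers were at 14.7 to 30.3 CPM in knockout livers, beside 26, 257.6 and 24.7 CPM in old controls. Among the other pathway lists, 11 of 15 heavy chain relatives and 7 of 8 standard subunits and activators had estimates above 0, with medians of 0.10 and 0.20. Counts above 0 were 11 of 13 for interferon gamma targets, 6 of 8 for trimming and loading partners and 8 of 22 for class I regulators. All 14 type I interferon targets had estimates above 0, with a median of 1.03, also with none called. Their summed level was 1526 and 1136 CPM in the knockout livers with guide 4, 2778 and 2976 CPM in those with guide 2 and 956.4 to 1305 CPM in old controls. Their part in the levels of the 10 genes was not tested.

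**Figure D4:**
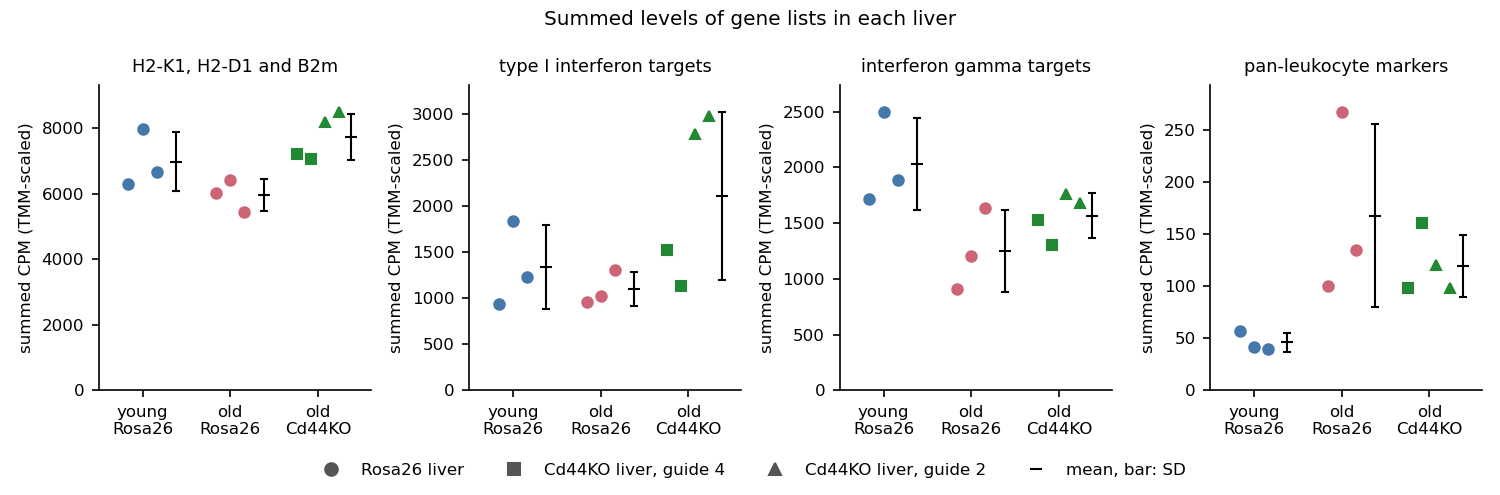
Summed CPM of 4 gene lists (vertical axes, linear, from 0) in every liver, by group; circles are Rosa26 livers, squares guide 4, triangles guide 2, and the black mark with its bar is the mean ± SD. The guide 2 livers are the highest of the 10 for H2-K1, H2-D1 and B2m (8202 and 8488 CPM) and for the type I interferon targets, while pan-leukocyte markers are highest in old control replicate 2.

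The knockout livers were then compared by guide, with 2 livers each. Estimates were above 0 (higher with guide 4) for 0 of the 10 genes and for 50.5% of all genes, and 7 of the 10 did not overlap, against 20.4% of all genes that were lower in that way. None was called, against 0.0216% of all genes. The log2 differences (guide 4 minus guide 2) ran from -0.42 for H2-D1 to -0.04 for Nlrc5, with a median of -0.26. For H2-D1 the 95% interval was -0.87 to 0.04, and for H2-K1, at -0.34, it was -0.73 to 0.05. Against old controls, guide 2 livers had 10 of 10 estimates above 0 (45.1% of all genes), from 0.03 for Tap2 to 0.59 for H2-D1, and 6 without overlap (9.56% of all genes). None was called, against 0.0216% of all genes. H2-K1 differed by 0.57 (interval 0.21 to 0.92, adjusted p = 0.441), and DESeq2 called it with an adjusted p of 0.0174. Guide 4 livers differed from old controls by -0.08 for Tap2 to 0.30 for B2m, with 9 of 10 above 0 (44.6% of all genes) and none called. In that comparison 2 genes, H2-K1 and B2m, did not overlap (7.05% of all genes).

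The type I interferon targets were lower with guide 4 too. All 14 type I targets were lower with guide 4 than with guide 2, with a median log2 difference of -1.30 and none called (smallest adjusted p 0.138). Ifit3, an interferon-induced antiviral gene, stood at 106.3 and 72.3 CPM in the guide 4 livers and at 419.2 and 408.8 CPM in the guide 2 livers. Oasl2, of the oligoadenylate synthetase family, had 65.95 and 51.04 CPM against 266.4 and 237.2 CPM. Interferon gamma targets had a median of -0.24, with 3 of 13 above 0. Of the heavy chain relatives, 3 of 15 had estimates above 0, with a median of -0.38 and none called (smallest adjusted p 0.568, edgeR's quasi-likelihood test). One of these relatives, H2-T22, was measured at 244.1 and 198.4 CPM in guide 4 livers and at 349.7 and 363.7 CPM in guide 2 livers. Whether the guides or the animals differ cannot be told apart with 2 livers each.

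The mean standardised log2 CPM of the 10 genes was -1.04, 0.16 and -0.60 in young livers, -0.52, 0.23 and -0.67 in old controls, and 0.08, 0.31, 1.04 and 1.01 in knockout livers. Young replicate 2 and old control replicate 2 were each the highest of their group. Of 13747 genes outside the lists, the 5 that followed this profile most closely over the 10 livers included Ifi208 (Pearson r = 0.949), Phf11d (0.91), Rdh14 (0.907) and Rbck1 (0.881). After subtraction of group means the closest 5 were Rbm43 (r = 0.971), Tomm20 (0.948), Tmem171 (0.938), Ifi208 (0.925) and Pdcl3 (0.923). These values describe 10 livers that share libraries and scaling with the profile, and they were picked as the highest of many.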

How the data were processed

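The authors deposited 1 table of raw counts per gene symbol from polyA RNA of 10 livers, read as pairs of 75 bases. The submitters' processing notes name mm10, FastQC 0.11.8, Trim Galore 0.4.4, STAR 2.5.3a and HOMER without roles; annotation and strand setting are not given in the sources used here. Reads shared by related or overlapping genes, such as the heavy chains, may be split, lost or counted for another gene. Counts were tested with edgeR 4.0.16 (R 4.3.3): quasi-likelihood, 1 coefficient per group over all livers, TMM factors, filterByExpr (minimum count 10, total 15), which left 13909 genes, Benjamini-Hochberg adjustment over them and a threshold of 0.05. Guides had their own coefficients in a separate fit. Log2 CPM used a prior count of 2. Symbols matched GENCODE M21 for 97.1%. No pair of livers within a group agreed within sampling noise. The chi-square per degree of freedom was 21.7 to 34 between young livers, 69.3 to 180 between old controls and 26.2 to 47.8 between knockout livers. The old controls thus differed most from each other. Alternatives were DESeq2 1.42.0, limma 3.58.1 (voom), other scalings and leaving out livers. The 10 genes and 22 lists (166 entries, 165 in the table) were chosen with earlier results of these data known. By rule the text names the 10 genes, their standard counterparts, a few regulators and markers, and up to 4 called genes per list and direction with a mean of at least 1 CPM, of which a selection is given; Calr, H2-T22, Ifit3 and Oasl2 were chosen after their values were seen. Single results that this rule would name are not reported here.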

Additional observations from a re-analysis of the deposited data

Results flagged for a closer look

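In the 4 knockout livers, 7 of 102 values tested had 1 liver far from the other 3 by Dixon's gap ratio (its value is the gap over the range), where about 5.1 would be so by chance, 1 in 20. Among the 10 genes this was Tap2, with replicate 3 at 53.7 CPM and the others at 47.1 to 48.02 CPM (0.856). Irgm1 was lowest in replicate 2, at 136.4 CPM against 196.4 to 201.8 CPM (0.917). Replicate 2 was highest for the class II genes H2-DMb1 (17.5 CPM against 8.31 to 9.66 CPM, 0.854) and H2-Eb1 (148.4 CPM against 56.3 to 69.3 CPM, 0.859). Ngp, a neutrophil granule gene, was highest in replicate 3, at 2.97 CPM against 0.35 to 0.567 CPM (0.917). The summed trimming and loading partners were highest in replicate 1, at 3617 CPM against 2049 to 2241 CPM (0.878). The summed standard subunits and activators were lowest in replicate 2, at 795.7 CPM against 873.2 to 889 CPM (0.831).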

How the results depend on the processing

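No paired analysis was possible because replicate numbers were given in accession order and link no animals across groups. In the age comparison members called were 1, and 4 with total counts, 2 with DESeq2, 2 with separate guide coefficients, 0 with only the groups compared and 0 to 2 on leaving out one liver. All genes called were 3172 there, 1192 with only the groups compared, and 396 (without young replicate 2) to 5327 (without old control replicate 3). Against young livers the knockout had 2 members called, and 7 with total counts, 4 with DESeq2, 4 with only the groups compared and 0 to 3 on leaving out one liver. All genes called were 1614 there, 3585 with total counts, 2803 with DESeq2, 969 by voom, 4223 in a fit of the compared groups alone, and 56 (without young replicate 2) to 1652 (without knockout replicate 1). Between knockout and old control, genes called were 0, with 8 by DESeq2 and 0 to 3 on leaving out one liver. Guide 2 against old control had 0 members called and 1 with DESeq2 (H2-K1). Leaving out one liver called no member in the knockout against old control comparison or any of the guide comparisons.

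With total counts, age differences in log2 that changed sign were 0.1492 for H2-K1, 0.2706 for H2-D1, 0.0004 for B2m, 0.012 for Tap1, 0.3161 for Nlrc5, 0.0554 for Alb, 0.1143 for Psmb6 and 0.3167 for Psme1, and those of knockout against young were 0.1847 for Tap1 and 0.1519 for Psmb5. With only the groups compared, Nlrc5 became 0.0002 and Psme1 0.0033 in the age comparison. Psmb6 became -0.0005 with DESeq2 or its size factors in knockout against young. Leaving out one liver turned signs over these ranges of log2 difference. With age they were -0.194 to 0.0912 for H2-D1, -0.0602 to 0.313 for Psmb9, -0.237 to 0.137 for Nlrc5, -0.0908 to 0.0805 for Psme1 and -0.051 to 0.148 for Psme2. For knockout against young they were -0.0618 to 0.19 for B2m and -0.011 to 0.0433 for Psmb6. For knockout against old control they were -0.167 to 0.0736 for Tap2, -0.0051 to 0.369 for Nlrc5, -0.294 to 0.0333 for Irf1 and -0.511 to 0.128 for Ptprc. For guide 4 against guide 2 the range was -0.331 to 0.197 for Nlrc5, and for guide 2 against old control -0.117 to 0.123 for Tap2. For guide 4 against old control they were -0.0149 to 0.157 for Tap1, -0.218 to 0.0224 for Tap2, -0.0968 to 0.151 for Tapbp, -0.0221 to 0.0989 for Psmb10 and -0.169 to 0.359 for Nlrc5. Of 52 named genes called with age, 50 lost the call in at least 1 such fit, and 29 of 30 did for knockout against young. The cause was not tested; each such fit has fewer livers.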
